A study of Mus musculus with 10 samples.

Results

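The 44 genes described here act in the crypt, the pit of the intestinal lining in which stem cells divide, and were chosen by name: stem cell markers, parts of the Wnt pathway and parts of the Notch pathway. Of these, 43 had a probe set that carried their symbol alone, 40 of those passed the filter on low values and entered the tests, and 13666 genes were tested in all. Ephb2, a receptor that positions cells along the crypt, had no such probe set and was not analysed here. Lrp5, Wnt3 and Wif1 lay below the filter's floor of 4.15 on the log2 scale and are given by level alone.

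The genes were measured in the terminal ileum of 10 male C57BL/6JJmsSlc mice, for which the labels give an age of 7 weeks, each on 1 array. The stressed group held 5 mice that went through subchronic and mild social defeat for 10 days, in which a mouse is put with an aggressive resident ICR male. Physical contact was 5 min on day 1 and was cut by 0.5 min a day to 0.5 min on day 10. The control group held 5 unstressed mice of the same strain, and all mice were housed singly, fed on AIN-93G and kept from food for 3 h before dissection. The comparison addresses which transcripts of the ileum differ after repeated mild social stress. Whole tissue was used, so that fewer cells of a type and less RNA per cell cannot be told apart.

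In the crypt base, Wnt proteins bind Frizzled receptors with the co-receptors Lrp5 and Lrp6, which stabilises beta-catenin and turns on genes through Tcf7l2. R-spondins, bound by Lgr4 and Lgr5, strengthen this signal by removing the ubiquitin ligases Rnf43 and Znrf3 that take Frizzled receptors off the cell surface. Notch ligands such as Dll1 and Dll4 on one cell activate Notch1 on the next, where Hes1 represses Atoh1, the factor that commits a cell to a secretory fate.

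Promoter sequence from RefSeq was found for 28 of the 44 genes, with 37 start sites, and 4 promoters are shown because the genes recur in the results. Each runs 5′ to 3′ over the 250 bases before a start site. Tnfrsf19 and Atoh1 are the members in which the letters CTTTGAT or CTTTGAA, the core bound by TCF factors, were found on either strand. Olfm4 holds TGGGAA, the core bound by the Notch effector RBPJ. Dll1 holds none of these letters in the window shown. Tnfrsf19 and Dll1 have 2 start sites each, of which 1 is shown. Capitals mark the matches, and reverse complements count as matches.
Tnfrsf19, GRCm38.p6 chr14:61037988-61038237, minus strand: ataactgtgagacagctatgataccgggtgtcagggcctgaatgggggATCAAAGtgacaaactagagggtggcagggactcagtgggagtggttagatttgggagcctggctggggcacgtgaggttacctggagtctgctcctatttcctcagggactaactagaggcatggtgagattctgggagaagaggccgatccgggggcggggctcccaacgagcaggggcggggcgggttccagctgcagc
Atoh1, GRCm38.p6 chr6:64728875-64729124, plus strand: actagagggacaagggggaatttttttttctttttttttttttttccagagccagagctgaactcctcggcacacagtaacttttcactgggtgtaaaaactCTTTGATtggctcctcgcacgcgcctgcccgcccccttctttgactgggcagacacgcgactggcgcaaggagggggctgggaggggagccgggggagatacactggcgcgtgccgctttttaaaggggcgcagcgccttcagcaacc
Olfm4, GRCm38.p6 chr14:80000052-80000301, plus strand: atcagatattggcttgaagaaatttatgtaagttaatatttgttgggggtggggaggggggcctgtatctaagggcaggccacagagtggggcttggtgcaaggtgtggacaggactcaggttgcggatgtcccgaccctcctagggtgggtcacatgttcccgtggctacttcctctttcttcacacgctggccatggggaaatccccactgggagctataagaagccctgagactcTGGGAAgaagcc
Dll1, GRCm38.p6 chr17:15376933-15377182, minus strand: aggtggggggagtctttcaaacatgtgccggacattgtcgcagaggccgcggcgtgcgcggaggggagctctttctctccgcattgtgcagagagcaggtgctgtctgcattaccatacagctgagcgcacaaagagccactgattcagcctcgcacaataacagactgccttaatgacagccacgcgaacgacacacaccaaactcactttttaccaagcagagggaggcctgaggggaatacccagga

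The TCF letters occurred in 2 of the 37 member promoters (5.41%), against 7.48% of all 32851 promoters of the same length. The RBPJ letters occurred in 7 (18.9%), those of Bmi1, Cd44, Cdca7, Efnb1, Olfm4, Prom1 and Wnt3, against 21.6% of all promoters. A match is a description of the letters and not a binding site.

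With all 10 arrays, 0 of the 40 members passed limma's test (p adjusted by Benjamini-Hochberg under 0.05), as did 0 of the 13666 genes (0%, with 1069 of them at an unadjusted p under 0.05). At an unadjusted p under 0.05, 5 of the 40 members were higher in stressed mice (12.5%, against 3.86% of all genes) and 0 were lower (against 3.96% of all genes). The 5 were Lgr5, Tnfrsf19, Fzd7, Rspo3 and Dll1. Over all 40 members 25 were higher and 15 lower, where 6961 of all genes were higher and 6705 lower. The median difference of the members was 0.045 on the log2 scale, against 0.0031 over all genes tested. Lgr5 and Dll1 were higher in every stressed mouse than in any control mouse, as were 1.16% of all genes. No member was lower in every stressed mouse, against 1.12% of all genes.

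The array of control mouse 1 stood apart, and each comparison is therefore given with and without it. Its tissue markers went against the ileum label: Fabp6, the ileal bile acid binding protein, was at 7.88 there, against 13.95 to 14.10 in stressed mice and 13.88 to 13.93 in the other control mice. It was below the other 9 mice in 11 of 12 ileal enterocyte genes and in 5 of 6 Paneth cell genes. Car1, a carbonic anhydrase abundant in the large intestine, was at 14.17 in control mouse 1, against 4.95 to 7.06 in the other controls. Stressed mouse 4 also had a high Car1 level, at 13.32, against 4.95 to 7.41 in the other stressed mice, together with Aqp8 at 7.26 against at most 4.44. Its ileal markers did not stand apart, with Fabp6 at 13.95. Control mouse 1 was above the other 9 mice in 5 of the 9 large intestine genes. Of these 9 genes, 6 lay below the floor, all of them posterior Hox genes. Hoxd10 was at 4.46 in stressed mouse 4 and 7.30 in control mouse 1. In control mouse 1, Hoxb13, Hoxd12, Hoxd13 and Hoxa13 lay within the range of the other controls, and Hoxd11 was at 3.23 against at most 3.17. In stressed mouse 4 no Hox gene of the list other than Hoxd10 was above all other stressed mice. The part of these markers in a result was not tested beyond the values given beside it.

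**Figure D1:**
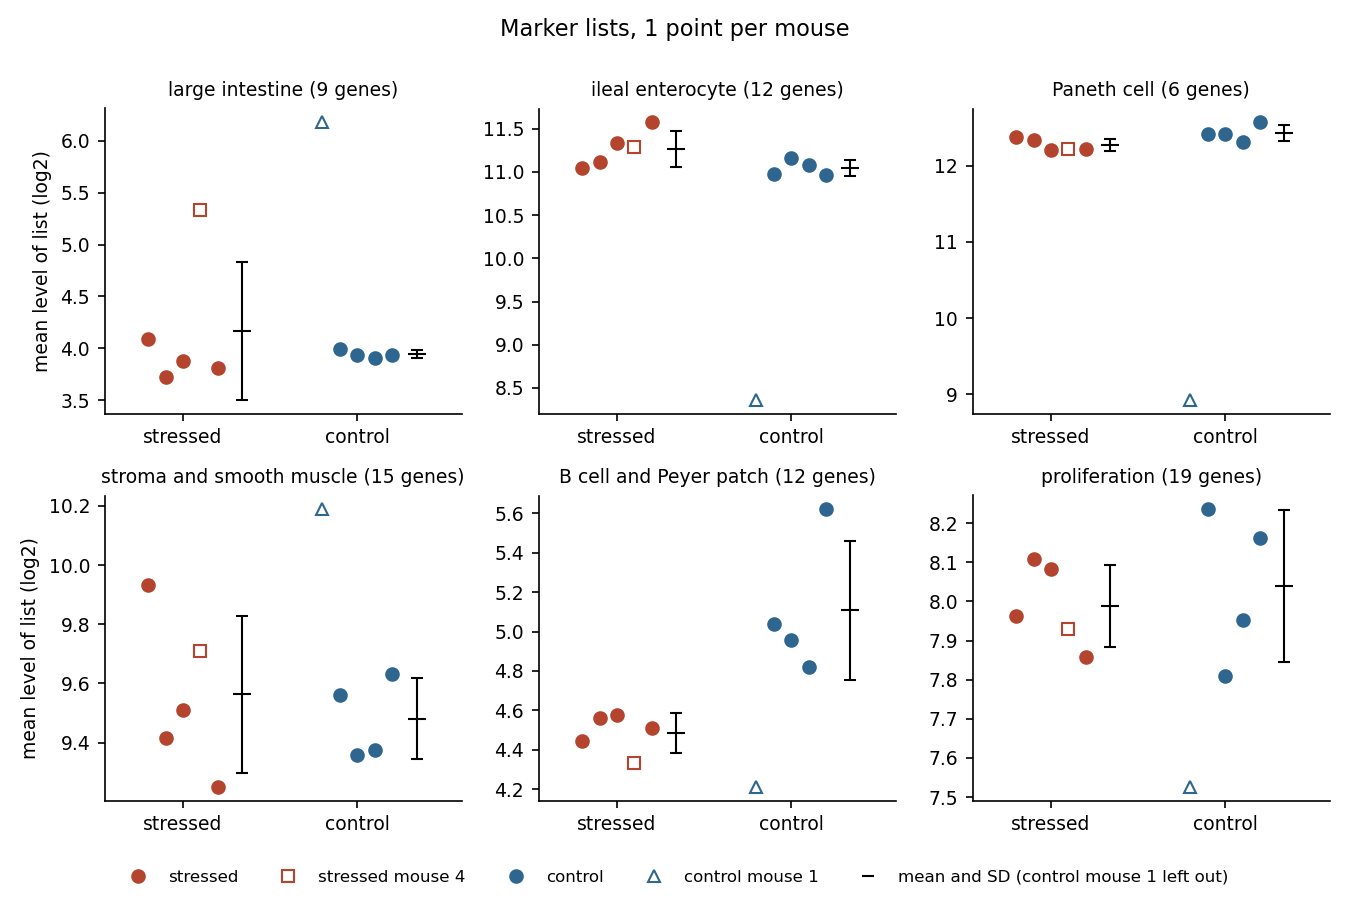
Mean log2 level of 6 marker lists in each mouse, with stressed mice left of control mice and bars for the mean and SD without control mouse 1. Control mouse 1 (open triangle) is at 6.18 for the large intestine list and 8.36 for the ileal enterocyte list, and stressed mouse 4 (open square) is at 5.33 for the large intestine list.

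Without control mouse 1, 1 of the 40 members passed at a limma adjusted p under 0.05 (Dixdc1, higher), against 0.798% of all genes (109 of 13666). With a further mouse left out, 6 to 154 genes and 0 to 1 members were called, the fewest genes without stressed mouse 4. At an unadjusted p under 0.05, 8 members were higher (20%, against 11.4% of all genes) and 2, Lgr4 and Ccnd1, were lower (5%, against 6.56% of all genes). The groups did not overlap for 4 members, all higher in stressed mice (Lgr5, Fzd7, Dixdc1 and Dll1; 10%, against 4.51% of all genes), and for 0 members in the lower direction (against 2.72%). Of the 40 members 27 were higher and 13 lower, where 7687 of all genes were higher and 5979 lower. The median difference over the 40 members was 0.10, against 0.025 over all genes tested. The 2 comparisons share 9 arrays and are not independent.

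**Figure D2:**
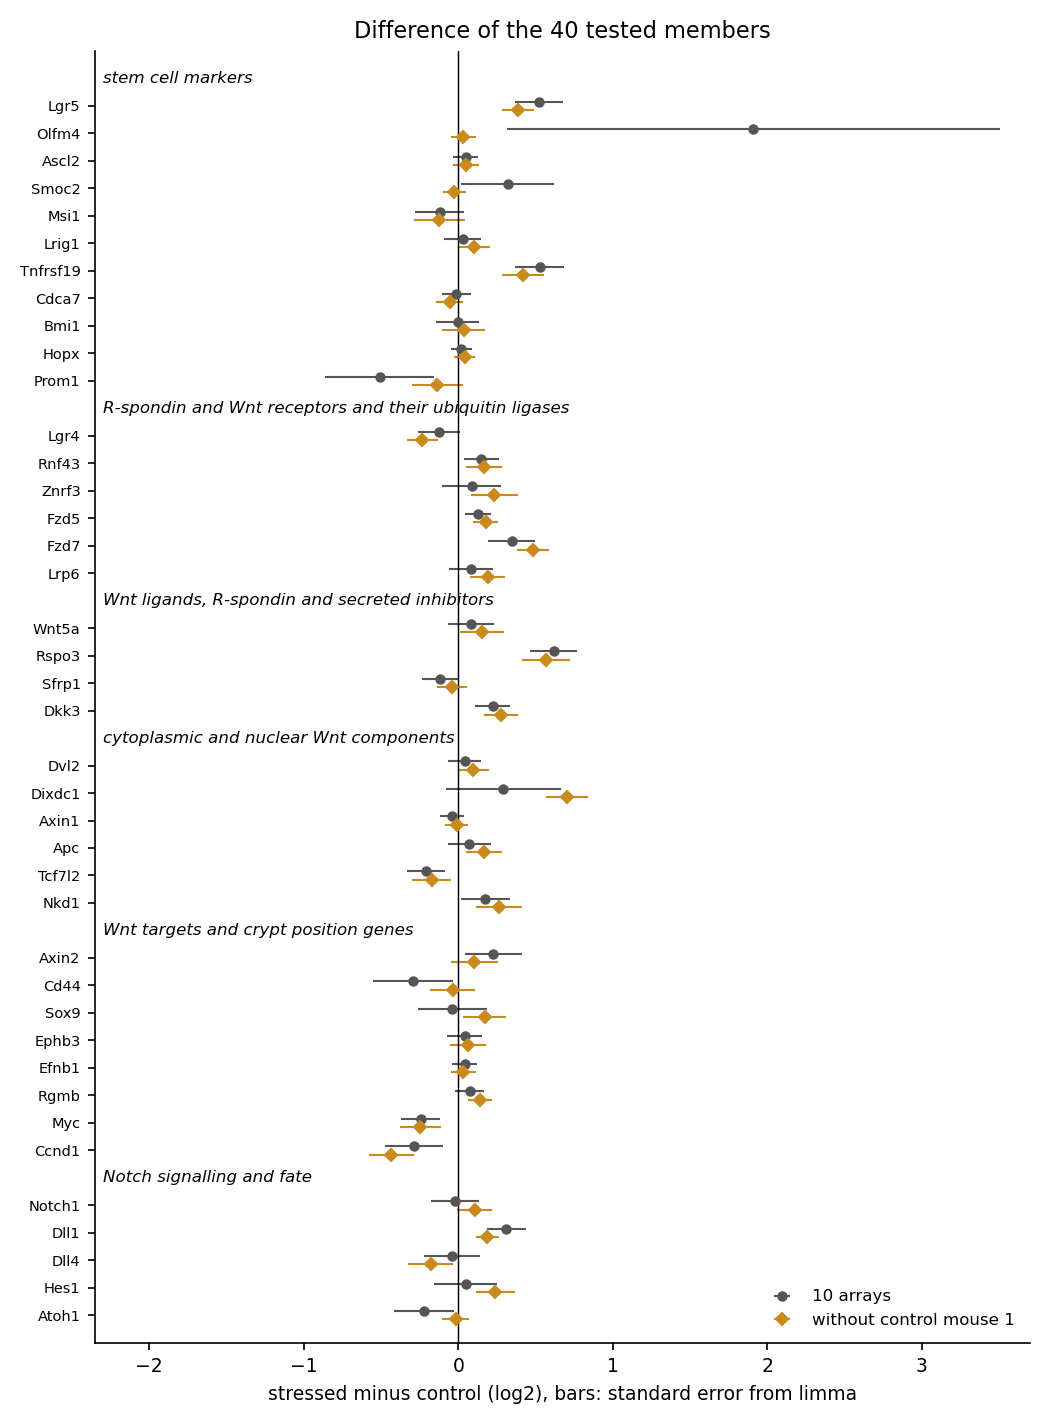
Stressed minus control difference (log2, bars for limma's standard error) of the 40 tested members by role, with all 10 arrays (grey circles) and without control mouse 1 (ochre diamonds). The estimates of Olfm4 (1.91 with 10 arrays and 0.03 without control mouse 1) and Dixdc1 (0.29 and 0.70) move most between the fits.

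Among the stem cell markers, Lgr5, the R-spondin receptor that defines cycling crypt base stem cells, was higher in each stressed mouse than in any control mouse. It was at 7.71, 7.25, 7.36, 7.49 and 7.25 on the log2 scale in stressed mice 1 to 5, against 6.34, 7.11, 6.89, 6.95 and 7.13 in control mice 1 to 5. The lowest stressed value exceeded the highest control value by little, and control mouse 1 was lowest. The difference was 0.52 ± 0.15 (SE), 1.44-fold, with all 10 arrays (limma adjusted p = 0.408). It was 0.39 ± 0.11 (SE), 1.31-fold, without control mouse 1 (limma adjusted p = 0.0993), and 0.37 ± 0.12 (SE) with stressed mouse 4 left out as well. A further Lgr5 probe set, below the floor with a mean of 4.11, pointed the other way: it differed by -0.15 with 10 arrays, where the groups overlapped, and by -0.21 without control mouse 1, where every stressed mouse was below every control mouse.

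Olfm4 and Smoc2, secreted proteins made by the same crypt base cells, gave overlapping groups. Olfm4 was at 11.88, 11.96, 12.03, 11.71 and 11.93 in stressed mice 1 to 5, against 2.48, 11.94, 11.77, 11.87 and 11.91 in control mice 1 to 5. Apart from control mouse 1, in which the transcript lay far below the floor, all mice lay within the same narrow range. The Olfm4 difference of 1.91 ± 1.59 (SE; limma adjusted p = 0.811) with 10 arrays became 0.03 ± 0.08 (SE; limma adjusted p = 0.861) without that mouse. In the mouse, Olfm4 is known as a stem cell marker of the small intestine that is scarce in the colon.

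Smoc2 was at 8.57, 8.31, 8.41, 8.34 and 8.37 in stressed mice 1 to 5, against 6.70, 8.46, 8.42, 8.37 and 8.45 in control mice 1 to 5. Again control mouse 1 alone stood below the others. The difference was 0.32 ± 0.30 (SE; limma adjusted p = 0.826) with 10 arrays and -0.03 ± 0.07 (SE; limma adjusted p = 0.881) without control mouse 1. Where the ranges overlap, a missed threshold does not show that the levels are alike.

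Ascl2, the transcription factor that maintains Lgr5-positive cells, gave unlike values on its probe sets. On the probe set with the highest mean it was at 6.44, 6.28, 6.08, 6.36 and 6.42 in stressed mice 1 to 5, against 6.29, 6.23, 6.31, 6.20 and 6.33 in control mice 1 to 5. These groups overlapped, with a difference of 0.05 ± 0.08 (SE; limma adjusted p = 0.919) with 10 arrays and 0.05 ± 0.09 (SE; limma adjusted p = 0.782) without control mouse 1. The second probe set was at 5.90, 5.35, 5.23, 5.42 and 5.35 in stressed mice 1 to 5, against 5.09, 4.93, 4.34, 5.06 and 4.67 in control mice 1 to 5. Every stressed mouse was above every control mouse there, with a difference of 0.63. That probe set was not the one chosen by the rule, and its values were singled out after they had been seen.

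**Figure D3:**
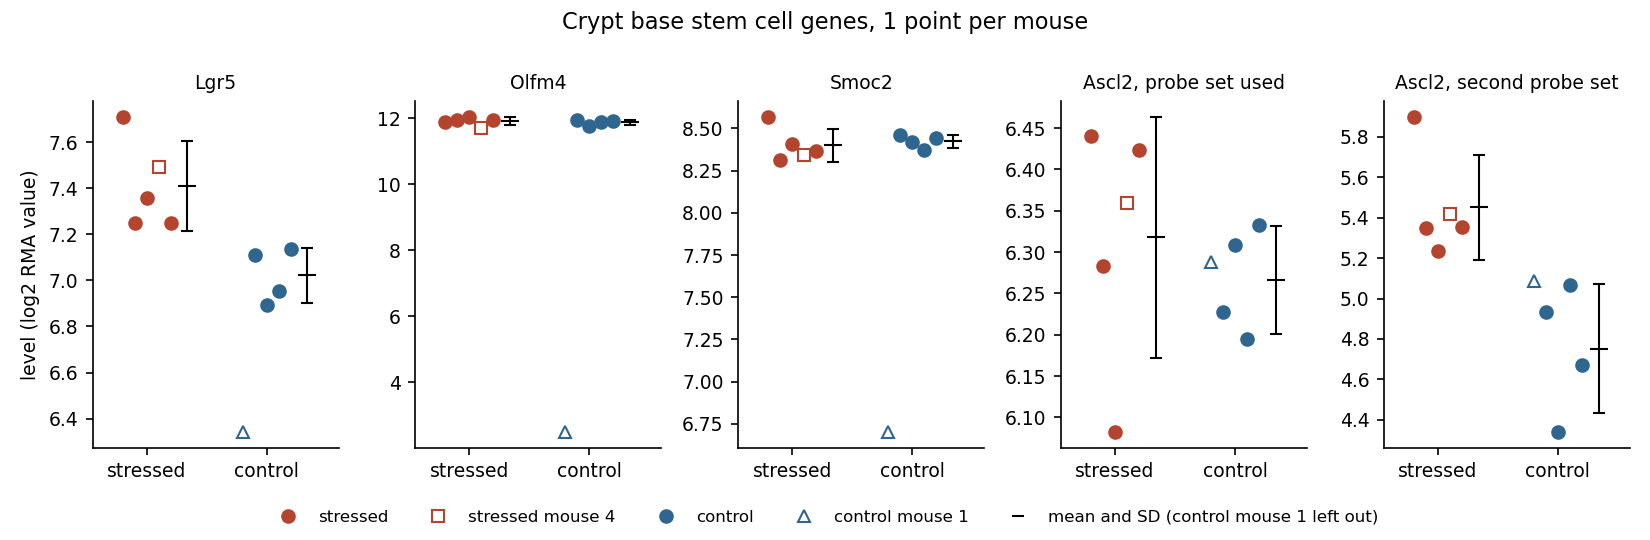
Log2 levels of Lgr5, Olfm4, Smoc2 and 2 probe sets of Ascl2, 1 point per mouse, stressed left of control, with the mean and SD without control mouse 1. The Lgr5 groups and those of the second Ascl2 probe set do not overlap, while those of Olfm4 and Smoc2 do, with control mouse 1 (open triangle) far below at 2.48 and 6.70.

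Tnfrsf19, also called Troy, a receptor expressed in crypt base cells, was at 6.64, 6.34, 6.72, 6.38 and 6.19 in stressed mice 1 to 5, against 5.50, 6.39, 5.86, 5.87 and 6.02 in control mice 1 to 5. Control mouse 2 lay inside the stressed range and the other 4 controls below it. The difference was 0.53 ± 0.16 (SE; limma adjusted p = 0.425) with 10 arrays and 0.42 ± 0.14 (SE; limma adjusted p = 0.147) without control mouse 1, while its second probe set above the floor differed by -0.02 and -0.11. Prom1, a membrane protein of crypt cells, averaged 10.27 ± 0.33 (SD, n = 5) in stressed mice and 10.41 ± 0.23 (SD, n = 4) in control mice 2 to 5. In control mouse 1 it reached 12.27, and its difference was -0.51 ± 0.35 (SE; limma adjusted p = 0.782) with 10 arrays. The other 5 tested markers, Msi1, Lrig1, Cdca7, Bmi1 and Hopx, differed by between -0.12 and 0.03 with 10 arrays, and by between -0.12 and 0.10 without control mouse 1. A second Bmi1 probe set, with a mean of 7.39 and named after its values had been seen, differed by 0.29 with 10 arrays, where the groups overlapped. Without control mouse 1 it differed by 0.34, and every stressed mouse was above control mice 2 to 5. Bmi1 and Hopx are known as markers of slowly dividing cells above the crypt base, and Lrig1 restrains growth factor signalling in stem cells.

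Of the receptors and their ubiquitin ligases, Fzd7, a Frizzled receptor with a known role in stem cells of the small intestine, was at 7.24, 7.03, 7.10, 7.23 and 7.19 in stressed mice 1 to 5. Against these it was at 7.36, 6.87, 6.34, 6.74 and 6.76 in control mice 1 to 5. Control mouse 1 was above every stressed mouse and the other controls were below every stressed mouse. The difference was 0.35 ± 0.15 (SE; limma adjusted p = 0.624) with 10 arrays and 0.48 ± 0.11 (SE; limma adjusted p = 0.0594), 1.40-fold, without control mouse 1. A further Fzd7 probe set above the floor differed by -0.08 in either comparison.

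Fzd5, the Frizzled receptor used in Paneth cell maturation, averaged 9.84 ± 0.08 (SD, n = 5) in stressed mice and 9.66 ± 0.12 (SD, n = 4) in control mice 2 to 5. The difference was 0.13 ± 0.09 (SE; limma adjusted p = 0.773) in the 10-array fit and 0.18 ± 0.08 (SE; limma adjusted p = 0.271) once control mouse 1 was left out. Rnf43 averaged 6.18 ± 0.22 (SD, n = 5) in stressed mice and 6.01 ± 0.14 (SD, n = 4) in control mice 2 to 5, with limma adjusted p of 0.794 and 0.479. Lgr4, the R-spondin receptor found along the whole crypt, was at 10.38, 10.70, 10.60, 10.50 and 10.64 in stressed mice 1 to 5, against 10.24, 10.79, 10.64, 10.69 and 11.06 in control mice 1 to 5. The groups overlapped, with control mouse 1 lowest and control mouse 5 highest. Its difference was -0.12 ± 0.13 (SE; limma adjusted p = 0.854) with 10 arrays and -0.23 ± 0.10 (SE; limma adjusted p = 0.253) in the other comparison. Together with Znrf3 and Lrp6, it spanned differences of -0.12 to 0.09 with 10 arrays and -0.23 to 0.23 without control mouse 1. Lrp5 was below the floor, at a mean of 3.82 in stressed mice and 3.81 in control mice.

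Among the secreted proteins, Rspo3, the R-spondin that the cells around the crypt supply to Lgr4 and Lgr5, had the smallest unadjusted p of all members with 10 arrays. It was at 7.12, 6.61, 6.93, 6.82 and 6.61 in stressed mice 1 to 5, against 6.01, 6.32, 5.81, 6.25 and 6.62 in control mice 1 to 5. Control mouse 5 reached the lower end of the stressed range and the other controls lay below it. The difference was 0.62 ± 0.15 (SE), 1.53-fold, with 10 arrays (limma adjusted p = 0.345). Without control mouse 1 it was 0.57 ± 0.15 (SE), 1.48-fold (limma adjusted p = 0.0976), and it stayed at 0.57 ± 0.17 (SE) without stressed mouse 4 as well.

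Dkk3, a secreted protein of the Dickkopf family, averaged 7.37 ± 0.21 (SD, n = 5) in stressed mice and 7.09 ± 0.13 (SD, n = 4) in control mice 2 to 5. The difference was 0.22 ± 0.12 (SE; limma adjusted p = 0.70) in the 10-array fit and 0.28 ± 0.11 (SE; limma adjusted p = 0.221) once control mouse 1 was left out. A second Dkk3 probe set, with a mean of 7.17 and named after its values had been seen, differed by 0.19 with 10 arrays, where the groups overlapped. Without control mouse 1 it differed by 0.26, and every stressed mouse was above control mice 2 to 5. Sfrp1, a secreted Frizzled-related inhibitor, averaged 7.54 ± 0.17 (SD, n = 5) in stressed mice and 7.58 ± 0.10 (SD, n = 4) in control mice 2 to 5, with limma adjusted p of 0.828 and 0.862. Wnt5a, a ligand of the beta-catenin-independent branch made by stromal cells, differed by 0.08 with 10 arrays and by 0.15 without control mouse 1. Its further probe sets above the floor differed by 0.35 and 0.18 with 10 arrays and by 0.45 and 0.25 without control mouse 1. Their groups overlapped. A Wnt5a probe set below the floor differed by -0.10 and -0.12. Wnt3, the ligand made by Paneth cells, was between 2.47 and 2.97 in stressed mice and between 2.58 and 3.34 in control mice, all below the floor.

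Wif1, a secreted protein that binds Wnt ligands, was below the floor in 9 mice. It was at 2.68, 2.69, 2.71, 2.58 and 2.70 in stressed mice 1 to 5, against 4.92, 2.32, 2.34, 2.30 and 2.43 in control mice 1 to 5. Control mouse 1 alone was above the floor. Values under the floor carry little signal, so the gap between the other mice was not tested.

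The mean level of the stroma and smooth muscle markers overlapped between the groups: it was 9.25 to 9.93 in stressed mice and 9.36 to 9.63 in control mice 2 to 5, with control mouse 1 at 10.19. Of 14 tested genes of that list, 4 were higher and 10 lower with 10 arrays, and 9 were higher and 5 lower without control mouse 1. At an unadjusted p under 0.05, 0 were higher and 1 lower (Actg2, a smooth muscle actin) with 10 arrays, and 2 were higher and 0 lower without control mouse 1, against 11.4% higher and 6.56% lower over all genes. The 2 were Foxf1 and Pdgfra, markers of the mesenchyme beside the epithelium, named after their values had been seen. Foxf1 was at 8.09 to 8.25 in stressed mice and 7.50 to 8.08 in control mice 2 to 5, with no overlap, and at 8.38 in control mouse 1. Its difference was 0.25 ± 0.14 (SE; limma adjusted p = 0.738) with all arrays and 0.36 ± 0.10 (SE; limma adjusted p = 0.111) once control mouse 1 was left out. Pdgfra was at 9.14 to 9.5 in stressed mice and 8.69 to 9.18 in control mice 2 to 5, and at 9.60 in control mouse 1. Its difference was 0.29 ± 0.16 (SE; limma adjusted p = 0.716) with all arrays and 0.42 ± 0.12 (SE; limma adjusted p = 0.10) once control mouse 1 was left out. The part of these cells in the Rspo3 difference was not tested beyond the list mean as a covariate. With that mean as a covariate and control mouse 1 left out, Rspo3 differed by 0.49 ± 0.12 (SE; limma adjusted p = 0.0610), Fzd7 by 0.45 ± 0.10 (SE; limma adjusted p = 0.0545) and Lgr5 by 0.33 ± 0.06 (SE; limma adjusted p = 0.0398). This was the 1 setting of 18 that called Lgr5. It called 204 of all 13666 genes, against 109 with no covariate. Over the other settings the limma adjusted p of Lgr5 ranged up to 0.540, the highest being with the B cell and Peyer patch score as the covariate. That score did not overlap between stressed mice and control mice 2 to 5, and 0 of all genes were called with it.

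**Figure D4:**
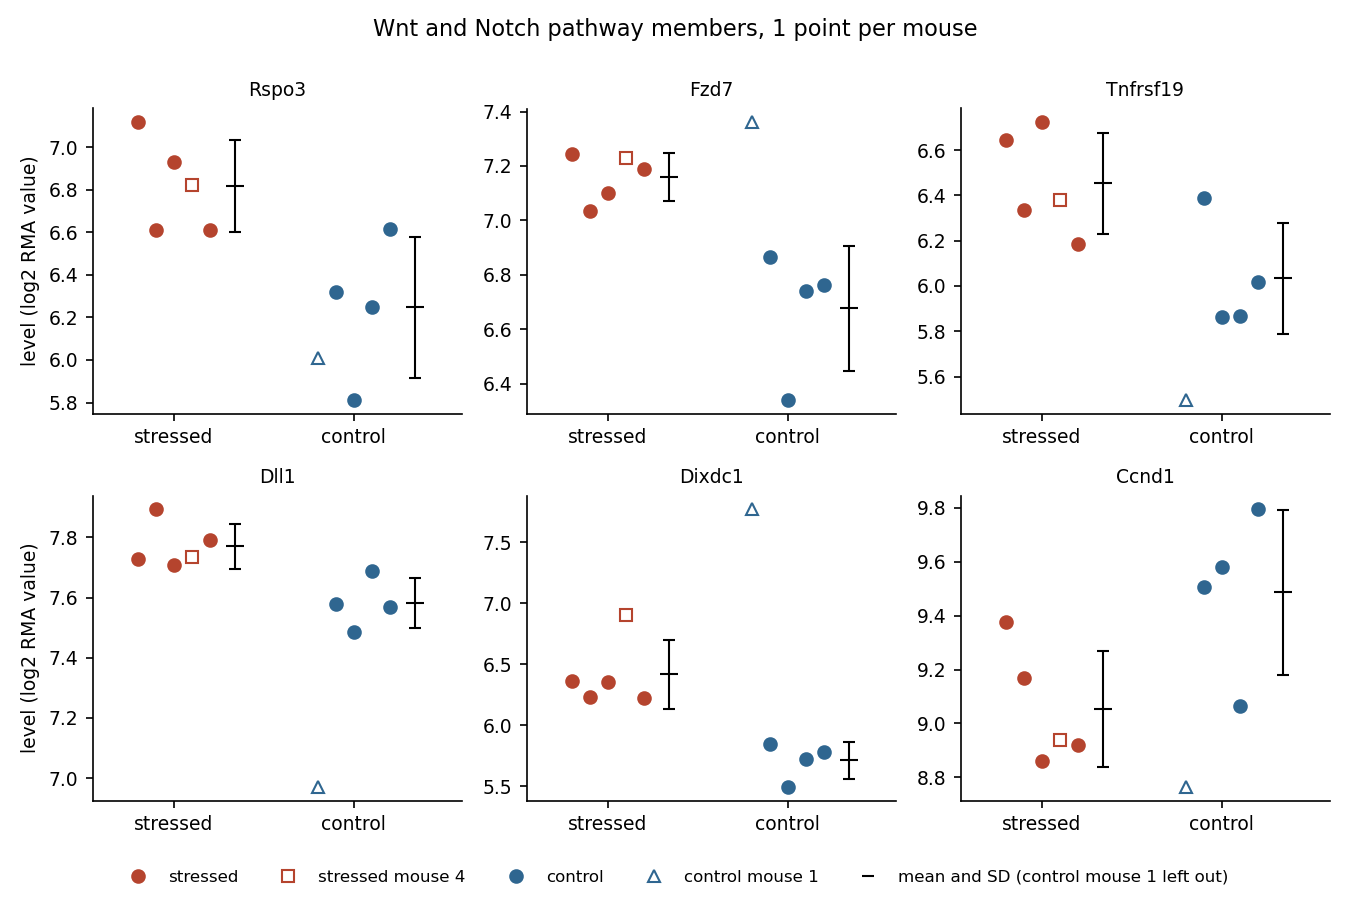
Log2 levels of Rspo3, Fzd7, Tnfrsf19, Dll1, Dixdc1 and Ccnd1, 1 point per mouse, stressed left of control, with the mean and SD without control mouse 1. Control mouse 1 (open triangle) is the highest of 10 mice for Fzd7 at 7.36 and Dixdc1 at 7.77, and the lowest for Tnfrsf19 at 5.50, Dll1 at 6.97 and Ccnd1 at 8.77.

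Inside the cell, Dixdc1, a DIX domain protein that binds Dishevelled and promotes Wnt signalling, was the 1 member that rose past the threshold over all genes, and did so only in the comparison without control mouse 1. It was at 6.36, 6.23, 6.35, 6.91 and 6.22 in stressed mice 1 to 5, against 7.77, 5.84, 5.49, 5.73 and 5.78 in control mice 1 to 5. Control mouse 1 was above all other mice, control mice 2 to 5 were below all stressed mice, and stressed mouse 4 was the highest of its group. Dixdc1 rose by 0.70 ± 0.14 (SE), 1.63-fold, without control mouse 1 (limma adjusted p = 0.0440), while the 10-array difference was 0.29 ± 0.37 (SE; limma adjusted p = 0.882).

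The 2 mice highest for Dixdc1 were the 2 with the highest level of the large intestine list, at 5.33 in stressed mouse 4 and 6.18 in control mouse 1, against 3.73 to 4.09 in the other stressed mice and 3.91 to 3.99 in the other controls. Without both mice the Dixdc1 difference was 0.58 ± 0.09 (SE; limma adjusted p = 0.0666). With the large intestine score as a covariate it was 0.61 ± 0.09 (SE) in the fit that leaves out control mouse 1 (limma adjusted p = 0.0371) and 0.46 ± 0.13 (SE) in the 10-array fit (limma adjusted p = 0.199). With the B cell and Peyer patch score as a covariate the call was lost without control mouse 1, at 0.64 ± 0.25 (SE; limma adjusted p = 0.526), and the 10-array difference turned to -0.34 ± 0.30 (SE; limma adjusted p = 0.625). Without control mouse 1 that score did not overlap between the groups, so it cannot be told apart from the group. Of all 13666 genes 0 were then called, so this lost call is not particular to Dixdc1. With the replicate number as a block the call was also lost, at a limma adjusted p of 0.0673. In the comparison without control mouse 1, the call was lost when any 1 further mouse except stressed mouse 2 was left out, at limma adjusted p between 0.0614 and 0.0992. A second Dixdc1 probe set above the floor differed by -0.062 with 10 arrays and by 0.0039 without control mouse 1.

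Tcf7l2, the transcription factor partner of beta-catenin in the gut, averaged 8.25 ± 0.16 (SD, n = 5) in stressed mice and 8.42 ± 0.26 (SD, n = 4) in control mice 2 to 5. Its difference was -0.21 ± 0.12 (SE; limma adjusted p = 0.751) with 10 arrays and -0.17 ± 0.13 (SE; limma adjusted p = 0.498) without control mouse 1. Nkd1, a feedback inhibitor that binds Dishevelled, averaged 6.50 ± 0.33 (SD, n = 5) in stressed mice and 6.23 ± 0.12 (SD, n = 4) in control mice 2 to 5, with limma adjusted p of 0.823 and 0.367. The scaffold proteins Axin1 and Apc of the complex that degrades beta-catenin, and the Dishevelled protein Dvl2, differed by between -0.04 and 0.07 with 10 arrays and by between -0.01 and 0.17 without control mouse 1.

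The direct targets of Wnt signalling did not share 1 direction. Axin2, a feedback target often read as a measure of Wnt activity, was at 8.04, 7.88, 7.32, 7.69 and 7.83 in stressed mice 1 to 5, against 7.03, 7.76, 7.55, 7.96 and 7.32 in control mice 1 to 5. The groups overlapped over most of their range, and control mouse 1 was lowest. The difference was 0.23 ± 0.18 (SE; limma adjusted p = 0.803) with 10 arrays and 0.11 ± 0.16 (SE; limma adjusted p = 0.755) without control mouse 1.

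Ccnd1, the cyclin that carries cells into the division cycle, was at 9.38, 9.17, 8.86, 8.94 and 8.92 in stressed mice 1 to 5, against 8.77, 9.51, 9.58, 9.06 and 9.79 in control mice 1 to 5. Control mice 2, 3 and 5 were above every stressed mouse, and control mouse 1 was below every one. The difference was -0.29 ± 0.19 (SE; limma adjusted p = 0.772) with 10 arrays and -0.43 ± 0.15 (SE; limma adjusted p = 0.165) without control mouse 1. Myc, a growth-promoting transcription factor downstream of Wnt, averaged 7.50 ± 0.25 (SD, n = 5) in stressed mice and 7.74 ± 0.18 (SD, n = 4) in control mice 2 to 5, and its limma adjusted p was 0.693 in the 10-array fit and 0.345 in the other.

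The other 5 tested genes of this group were Cd44, Sox9, Ephb3, Efnb1 and Rgmb. They differed by between -0.29 and 0.07 with 10 arrays and by between -0.03 and 0.17 without control mouse 1, at limma adjusted p of at least 0.817 and 0.371. Further Rgmb probe sets above the floor differed by between -0.04 and 0.37 with 10 arrays. Without control mouse 1 these differed by between -0.08 and 0.52, and their groups overlapped in either comparison. Ephb3 and its ligand Efnb1 sort cells along the crypt, and Sox9 is needed for Paneth cells. Genes of cell division, a list of 20 with 19 on the array and 18 tested, were higher in 13 and lower in 5 with 10 arrays, and higher in 3 and lower in 15 without control mouse 1. None of the 18 passed at an unadjusted p under 0.05 in either comparison in limma. Control mouse 1 was below all 9 other mice in 16 of the 19 genes. The smallest unadjusted p of the list was that of Mcm5 with 10 arrays, at 0.25 ± 0.13 (SE; limma adjusted p = 0.684). Without control mouse 1 it was that of Birc5, at -0.20 ± 0.10 (SE; limma adjusted p = 0.316). The proliferation antigen Mki67, 1 of the 3 genes higher without control mouse 1, showed a difference of 0.19 ± 0.19 (SE; limma adjusted p = 0.828) in the 10-array fit. Its difference was 0.12 ± 0.18 (SE; limma adjusted p = 0.769) once control mouse 1 was left out.

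Of the Notch genes, Dll1, a ligand on cells that enter the secretory lineage, was higher in each stressed mouse than in any control mouse. It was at 7.73, 7.89, 7.71, 7.73 and 7.79 in stressed mice 1 to 5, against 6.97, 7.58, 7.49, 7.69 and 7.57 in control mice 1 to 5. The stressed mice lay close together, control mouse 4 lay just below them, and control mouse 1 was far below. The difference was 0.31 ± 0.12 (SE), 1.24-fold, with 10 arrays (limma adjusted p = 0.582) and 0.19 ± 0.07 (SE), 1.14-fold, without control mouse 1 (limma adjusted p = 0.206).

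Hes1, the repressor that Notch activity turns on, was at 7.70, 8.31, 7.92, 8.13 and 7.98 in stressed mice 1 to 5, against 8.73, 7.92, 7.62, 7.58 and 7.95 in control mice 1 to 5. Control mouse 1 was highest, and the other controls overlapped with the stressed mice. The difference was 0.05 ± 0.20 (SE; limma adjusted p = 0.969) with 10 arrays and 0.24 ± 0.13 (SE; limma adjusted p = 0.347) without control mouse 1. Atoh1 was at 8.19, 8.27, 8.27, 8.37 and 7.95 in stressed mice 1 to 5, against 9.26, 8.25, 8.17, 8.29 and 8.19 in control mice 1 to 5. Apart from control mouse 1 the groups overlapped, and the difference was -0.22 ± 0.19 (SE; limma adjusted p = 0.814) with 10 arrays and -0.02 ± 0.09 (SE; limma adjusted p = 0.942) without control mouse 1. The receptor Notch1 and the ligand Dll4 differed by -0.02 and -0.04 with 10 arrays, at limma adjusted p of at least 0.973. When control mouse 1 was left out, Notch1 differed by 0.11 (limma adjusted p = 0.662) and Dll4 by -0.18 (limma adjusted p = 0.549). Of 9 goblet cell markers, products of the lineage that Atoh1 opens, the stressed level was higher in 4 and lower in 5 with 10 arrays and higher in 5 and lower in 4 without control mouse 1.

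Further genes of both pathways were counted from lists of genes that are not members. Of 54 further Wnt pathway genes 48 were tested: 29 were higher and 19 lower with 10 arrays, with a median difference of 0.02, and 5 were higher and 0 lower at an unadjusted p under 0.05, against 3.86% higher and 3.96% lower over all genes. Without control mouse 1, 30 were higher and 18 lower, where 7687 of all genes were higher and 5979 lower. At an unadjusted p under 0.05, 9 were higher and 2 lower (against 11.4% higher and 6.56% lower over all genes). None of the 48 passed limma's adjusted threshold in either comparison. Dvl1, a Dishevelled protein, was at 9.75, 9.64, 9.63, 9.75 and 9.66 in stressed mice 1 to 5, against 9.44, 9.35, 9.44, 9.42 and 9.48 in control mice 1 to 5. These groups did not overlap, and the difference was 0.26 ± 0.06 (SE; limma adjusted p = 0.345) with 10 arrays and 0.26 ± 0.07 (SE; limma adjusted p = 0.0867) without control mouse 1. The receptor Fzd2, the ligand Wnt4 and the Dickkopf protein Dkk2 differed by 0.39, 0.31 and 0.84 with 10 arrays and by 0.37, 0.31 and 0.53 without control mouse 1. The 2 lower genes, named after their values had been seen, were Dvl3, also a Dishevelled protein, and the ligand Wnt9b. Dvl3 was at 4.72 to 5.03 in stressed mice and 5.10 to 5.36 in control mice 2 to 5, with no overlap, and at 4.57 in control mouse 1. Its difference was -0.22 ± 0.14 (SE; limma adjusted p = 0.764) with all arrays and -0.35 ± 0.09 (SE; limma adjusted p = 0.0830) once control mouse 1 was left out. Wnt9b differed by -0.28 with 10 arrays and by -0.34 without control mouse 1, and its groups overlapped.

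Of 38 further Notch pathway genes 33 were tested: 20 were higher and 13 lower with 10 arrays and none reached an unadjusted p under 0.05 in limma. Without control mouse 1, 19 were higher and 14 lower, where 7687 of all genes were higher and 5979 lower. At an unadjusted p under 0.05, 2 were higher and 0 lower (against 11.4% and 6.56% over all genes), and none passed limma's adjusted threshold. Mib1, the ubiquitin ligase that activates Notch ligands, had the smallest unadjusted p of this list with 10 arrays, at a difference of 0.27 ± 0.13 (SE; limma adjusted p = 0.659).

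Markers of other cells were counted in the same way. Over all 13666 genes tested, 6961 were higher and 6705 lower with 10 arrays, and 0 were called. Without control mouse 1, 7687 were higher and 5979 lower, and 109 (0.798%) were called. Ileal enterocyte genes were higher in stressed mice in 12 of 12 with 10 arrays and in 10 of 12 without control mouse 1, with 1 past limma's adjusted threshold. Paneth cell genes were higher in 5 and lower in 1 with 10 arrays, and higher in 3 and lower in 3 without control mouse 1. That mouse was below all 9 others in 5 of these 6 genes. Enteroendocrine genes were higher in 6 and lower in 4 in either comparison. The 1 called without control mouse 1 was Cck, at a difference of -0.52. Tuft cell genes were higher in 0 and lower in 5 with 10 arrays, then higher in 2 and lower in 3. Enteric neuron and glia genes were higher in 6 and lower in 1 in either comparison. The 3 tested large intestine genes were higher in 1 and lower in 2 with 10 arrays and higher in 3 without control mouse 1. B cell and Peyer patch genes were lower in 7 of 7 in either comparison, with 2 past limma's adjusted threshold without control mouse 1. Their part in the members' differences was not tested beyond the use of list scores as covariates.

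Control mouse 1 differed from the other control mice in many members, in both directions. It lay more than 2-fold above the mean of control mice 2 to 5 for 5 of 40 members (against 4.81% of all genes) and more than 2-fold below it for 2 (against 3.59% of all genes). The 5 were Dixdc1, higher by 2.06 on the log2 scale, Prom1 by 1.86, Cd44 by 1.29, Sox9 by 1.05 and Atoh1 by 1.03. The 2 below were Olfm4, which differed by -9.39, and Smoc2, by -1.72. It was above all 9 other mice for 17 members (42.5%, against 34.6% of all genes) and below all of them for 9 (22.5%, against 18.6% of all genes). With 1 mouse there is no test of these differences.

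**Figure D5:**
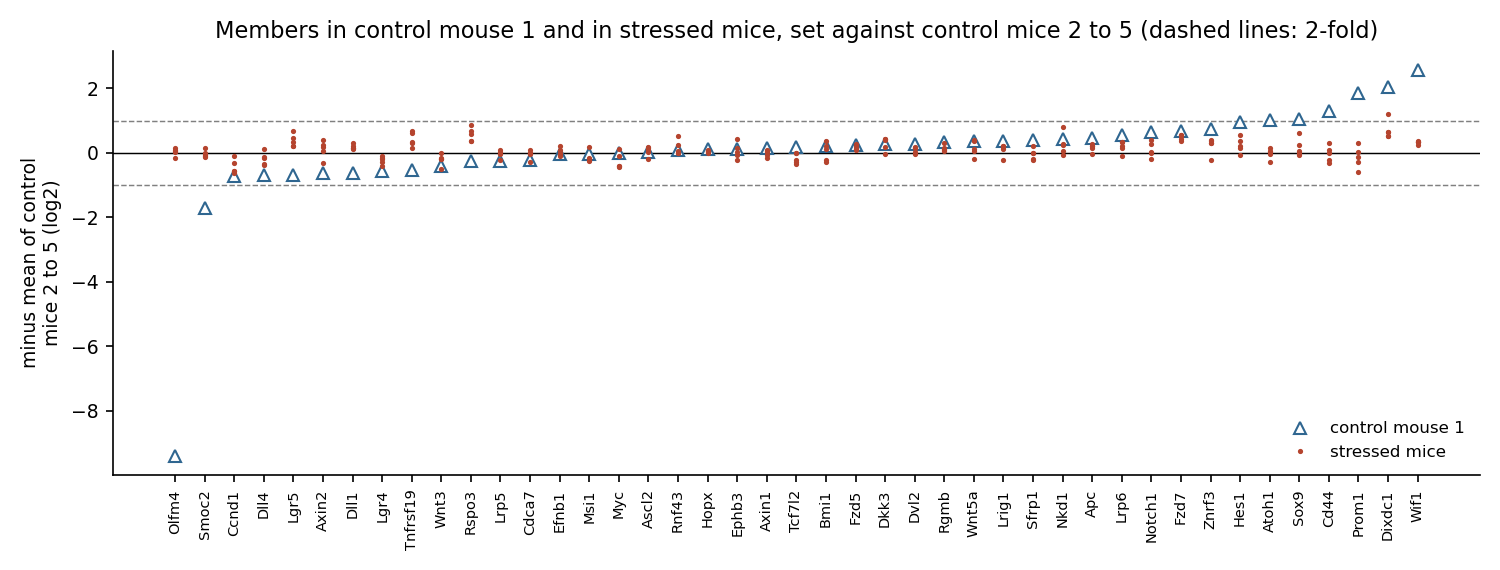
Log2 level minus the mean of control mice 2 to 5 for 43 members, in control mouse 1 (open triangles) and in the 5 stressed mice (red dots), ordered by the value of control mouse 1. Olfm4 in control mouse 1 is 9.39 below the other controls, and the stressed mice of most members lie within the dashed lines at 2-fold.

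Within the groups, 1 mouse often gave the extreme value. Stressed mouse 1 was the highest of its group for 21 of 40 members (52.5%, against 29% of all genes tested) and also had the highest level of the stroma and smooth muscle list among stressed mice, at 9.93. Control mouse 3 was the lowest of control mice 2 to 5 for 24 members (60%, against 35.6% of all genes). The part of the stromal level in the first of these counts was not tested.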

How the data were processed

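Ileal RNA of 5 stressed and 5 control mice was measured on 1 Affymetrix 3' expression array per mouse, from 100 ng of total RNA per the labels' protocols. The authors deposited a table of log2 values for 45101 probe sets, made with RMA per the submitters' processing notes; for its version and software, the sources used here give nothing. No source states the base of the logarithm; 2 was assumed, as RMA normally writes it, and the values span 1.22 to 14.4. RMA gives the arrays a common distribution, which hides a change in total RNA and understates differences close to background. Arrays carry no read depth, so their number limits the precision.

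Of the probe sets, 34945 had 1 gene symbol in the platform annotation, 932 had several, 9160 had none and 64 were controls; 34741 of the 1-symbol sets matched a RefSeq gene by identifier and 0 symbols changed. The lowest 40 percent of probe sets by mean over the 10 arrays were left out, and for each gene the probe set of highest mean was kept. Stressed mice were compared with control mice over 13666 genes in R 4.3.3 with limma 3.58.1 (lmFit and eBayes, Benjamini-Hochberg adjustment over all genes), with all 10 arrays and without control mouse 1. Differences are stressed minus control on the log2 scale, and the code was tested on simulated data. Levels of different probe sets are not compared with each other. The labels do not say whether mice shared a batch. The p-values set a group difference against the spread between these mice, which eBayes moderates with the spread of all tested genes.

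The sample titles gave the group and number of each mouse. The members, lists and comparisons were chosen with earlier results of these data known. All 44 members are accounted for; values of every mouse are given for members that passed, members whose groups did not overlap and 8 genes that define crypt identity or fate, and up to 3 members per role by smallest unadjusted p with 10 arrays are named with their test. Tnfrsf19, Lgr4, Rspo3, Ccnd1, Wif1 and Dvl1 were given by mouse after their values had been seen. Alternatives left out each mouse, used the replicate number as a block, changed the filter, averaged probe sets, weighted arrays, subtracted array medians or added the score of 1 marker list. The numbers were not taken to pair the mice: over genes, the deviations of same-numbered mice from their group means correlated between -0.297 and 0.277. Of the 24 members with several probe sets above the floor, 11 had differences of both signs with 10 arrays and 11 without control mouse 1. The 9 arrays other than control mouse 1 correlated at 0.975 to 0.995 over genes, and that array at 0.918 to 0.947 with them.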

Additional observations from a re-analysis of the deposited data

Results flagged for a closer look

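Of 48 groups of 5 mice examined for 24 members, 9 held a mouse whose gap to its nearest neighbour took more than 0.71 of the group's range, where about 1 group in 20 would by chance. The groups share the same mice, and part of the members were picked by their values, so that rate does not test the count of 9. Control mouse 1 gave 7 of the 9. Its share of the range was 0.982 for Olfm4 (level 2.48, nearest control 11.77), 0.951 for Smoc2 (6.70, nearest 8.37), 0.949 for Wif1 (4.92, nearest 2.43), 0.889 for Atoh1 (9.26, nearest 8.29), 0.846 for Dixdc1 (7.77, nearest 5.84), 0.770 for Prom1 (12.27, nearest 10.58) and 0.719 for Dll1 (6.97, nearest 7.49). Stressed mouse 4 gave the other 2, with 0.795 for Dixdc1 (6.91, nearest stressed mouse 6.36) and 0.741 for Wif1 (2.58, nearest 2.68), which lies below the filter's floor.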

How the results depend on the processing

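With 10 arrays, leaving out 1 mouse gave 0 to 109 called genes and 0 to 1 called members, the highest of both without control mouse 1. Averaging probe sets gave 2 called genes, array weights 41, the large intestine score 7 and the stroma and smooth muscle score 3. Members at an unadjusted p under 0.05, a count added after the data had been seen, numbered 5 with 10 arrays and 4 to 10 with 1 mouse left out, 11 with array weights, 8 with the large intestine score and 10 with the B cell and Peyer patch score. Of all 13666 genes, 1069 passed that threshold with 10 arrays, 693 to 2458 with 1 mouse left out, 2180 with array weights, 1765 with the large intestine score and 2283 with the B cell and Peyer patch score. Without control mouse 1, leaving out a further mouse gave 6 to 154 called genes (19, 16 and 58 without control mice 2, 3 and 4, and 32, 21, 6 and 14 without stressed mice 1, 3, 4 and 5) and 0 to 1 called members. The large intestine score gave 12 called genes, the stroma and smooth muscle score 204 genes and 2 members (Dixdc1 and Lgr5), and the B cell and Peyer patch score 0 genes, 0 members and 5 members at an unadjusted p under 0.05 (1252 of all genes, against 2458 with no covariate). That list's mean was 4.33 to 4.58 in stressed mice and 4.82 to 5.62 in control mice 2 to 5, so that it cannot be told apart from the group. Averaging probe sets left 0 called members.

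With the replicate block, 0 members were called with 10 arrays and 0 without control mouse 1, where Dixdc1 differed by 0.72 at a limma adjusted p of 0.0673 and 95 genes were called. Same-numbered mice were not taken to be pairs, though the labels do not say, and the mouse of 2 of 5 numbers correlated best with its own number.

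Of 21 named members, 16 kept their direction under all 19 alternatives with 10 arrays, and 14 under all 18 without control mouse 1, among them Lgr5, Tnfrsf19, Fzd7, Rspo3 and Dll1 in both. Reversals with 10 arrays were Ascl2 at -0.0029 with array weights, and with the B cell score Dixdc1 at -0.34, Ccnd1 at 0.036 and Hes1 at -0.17. With 1 mouse left out, Smoc2 ranged from -0.025 to 0.41 and Hes1 from -0.048 to 0.24. Without control mouse 1, Ascl2 was at -0.0017 and Axin2 at -0.0017 with array weights, Smoc2 at 0.034 and Sfrp1 at 0.048 with averaged probe sets, and Smoc2 at 0.0036, Tcf7l2 at 0.056 and Axin2 at -0.32 with the B cell score. With a further mouse left out, Olfm4 ranged from -0.0025 to 0.081, Sfrp1 from -0.10 to 0.0049, Axin2 from -0.0047 to 0.21 and Atoh1 from -0.056 to 0.048. No cause of these changes was tested.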
